A study of Mus musculus and Homo sapiens with 180 samples.

Results

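MOLM13 is a human acute myeloid leukaemia line that carries the MLL-AF9 fusion. The libraries described here are those of MOLM13 cells labelled PCGF1 KO and of MOLM13 cells labelled BCOR KO, both kept in DMSO, the solvent of the drugs. They number 6 of the 180 samples of the series, 3 from each knockout, and were taken by their column names. PCGF1 KO was compared directly with BCOR KO, so a positive log2 fold change means higher in PCGF1 KO. All 6 libraries are labelled 72 h. Control cells, 3 libraries of the same table with a control guide and DMSO, are given beside many of the values as the background level. Other libraries used below are the same 2 knockouts in SGC0946, which inhibits DOT1L, or in VTP50469, which inhibits Menin, 3 per knockout and drug, and a PCGF1/BCOR double knockout with its own control, 3 each, in DMSO and labelled 96 h. The cells expressed Cas9 and received a guide by lentivirus, and the methods describe the edited populations as polyclonal, so cells without a disrupted gene may remain. The study calls its replicates biological but does not say what was kept separate, so p-values measure the spread between these libraries.

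PCGF1 and BCOR are both subunits of PRC1.1, a variant Polycomb repressive complex that places ubiquitin on histone H2A. PCGF1 is the RING-finger subunit that pairs with RING1 or RNF2, the ubiquitin ligases. BCOR, or its paralogue BCORL1, binds PCGF1 and links this core to KDM2B, whose CXXC zinc finger binds unmethylated CG dinucleotides and brings the complex to CpG islands. Polycomb complexes are best known for holding developmental genes silent, among them the homeobox genes. The direct comparison asks which genes separate cells edited at PCGF1 from cells edited at BCOR.

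The guide columns are named G2, and guide 2 for each human gene in the study's oligonucleotide list is shown here because its site sets what each edit can remove. The link between column and oligonucleotide rests on that number alone. Every library of a knockout carries the same guide name, so edited gene, guide and edited population cannot be told apart. Each is printed 5′ to 3′ with the PAM of its GRCh38 site in capitals.
PCGF1 guide 2: gaggtacgccatctccggAGG
BCOR guide 2: gcgcaatggacgagaggcGGG
The PCGF1 guide matched chr2:74505591-74505608 on the minus strand, in coding exon 7 of the 9 exons of the canonical GENCODE transcript, with 78.4% of the coding sequence before the cut. The BCOR guide matched chrX:40074498-40074515 on the plus strand, in coding exon 4 of 15, with 15.8% of the coding sequence before the cut. Both genes lie on the minus strand. The files count reads per gene and not per position, so they cannot show the edit itself.

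Reads counted on genes ranged from 4377206 to 6196482 per PCGF1 KO library and from 5140598 to 5921745 per BCOR KO library. At this depth, 3 counts summed over the 3 libraries of a group, the limit that a count of 0 allows, correspond to 0.192 CPM in PCGF1 KO and 0.179 CPM in BCOR KO, where CPM is the count per 1e6 reads, scaled by TMM. Pearson correlations of log2(CPM + 1) across genes ran from 0.981 to 0.985 within PCGF1 KO, from 0.986 to 0.988 within BCOR KO and from 0.968 to 0.975 between them. Among control libraries they ran from 0.971 to 0.987, and control replicate 2 was the library that stood apart. Myeloid genes marked all libraries: ELANE, the neutrophil elastase gene, had 1086 ± 141 CPM (SD, n = 3) in PCGF1 KO and 894 ± 77.8 in BCOR KO. Of 13 B-cell genes 1 passed the filter on low counts (PAX5), and of 13 erythroid genes 2 passed (TFRC and EPOR, neither limited to red cells nor called).

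The edited genes come first because they check the labels. PCGF1 transcript was at 8.08, 3.36 and 4.72 CPM in the PCGF1 KO libraries and at 5.41, 6.59 and 5.96 CPM in the BCOR KO libraries, with 7.62, 8.42 and 7.19 CPM in control. These values overlapped between the knockouts (log2 fold change −0.16 ± 0.27 SE, adjusted p = 0.873, from the quasi-likelihood test of edgeR, adjusted over all genes by Benjamini and Hochberg). BCOR transcript was at 97.9, 111 and 106 CPM in BCOR KO by label and at 66.1, 64.3 and 58.1 CPM in PCGF1 KO. All 3 libraries labelled BCOR KO therefore lay above all PCGF1 KO and control libraries, the latter at 55.3, 45.3 and 56 CPM (log2 fold change −0.74 ± 0.09, adjusted p = 8.07e-07). Neither transcript was lowest in its own knockout by a margin beyond the spread, so the transcript levels do not check the loss of protein. The study's methods report efficient disruption of target genes, seen by immunoblot or Sanger sequencing. The study also reports that PCGF1 cDNA made PCGF1 KO cells sensitive again to both inhibitors. BCORL1, the paralogue of BCOR, was higher in PCGF1 KO, at 22.8, 20.8 and 19.8 CPM against 12.6, 10.6 and 10.3 CPM (log2 fold change 0.93 ± 0.16, adjusted p = 0.000189). The other 7 PRC1.1 subunit genes tested, RING1, RNF2, YAF2, KDM2B, USP7, SKP1 and RYBP, were not called, with log2 fold changes from −0.08 to 0.37.

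Of 12140 genes tested, 802 (6.61%) were called at an adjusted p under 0.05, 571 (4.7%) higher in PCGF1 KO and 231 (1.9%) higher in BCOR KO. The differences toward PCGF1 KO were also larger. Their median log2 fold change was 1.31, and 180 of the 571 exceeded 2. The median of the genes higher in BCOR KO was −0.68, and 21 of the 231 went beyond −2. The 3 libraries of one knockout lay entirely above or below those of the other for 567 of the 571 and for 228 of the 231, beside 2703 of all genes tested (22.3%). The median over all genes was −0.01, which the TMM scaling sets close to 0.

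The genes were also sorted by their level in control cells, whose libraries are no part of the comparison. Of 599 genes tested whose control mean was under 1 CPM, 149 (24.9%) were called higher in PCGF1 KO and 9 (1.5%) higher in BCOR KO. Such genes passed the filter on low counts through some other group, so the share of calls among them is raised by the filter and is given as a description only. From 1 to 5 CPM the counts were 154 and 27 of 2512 genes, and from 5 to 20 CPM they were 126 and 61 of 3241. Among 4135 genes between 20 and 100 CPM in control the directions were nearly even, with 104 higher in PCGF1 KO and 100 higher in BCOR KO. Among the 1653 genes at 100 CPM or more the counts were 38 and 34.

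Several of the largest differences toward PCGF1 KO were at genes near or at 0 in both other populations. HMX2, a homeobox transcription factor of inner ear and hypothalamus, was at 7.67, 5.60 and 5.67 CPM in PCGF1 KO and had no read in any BCOR KO or control library in DMSO. It was at least 35.1-fold higher, counting 3 reads over the BCOR KO group as the floor (adjusted p = 5.89e-06). OTP, a homeobox factor of the developing hypothalamus, was at 27.1, 33.9 and 34.0 CPM in PCGF1 KO and at 0.386, 0.330 and 0.542 CPM in BCOR KO, with no read in control. The log2 fold change of OTP was 6.17 ± 0.37 (adjusted p = 7.57e-12). IGFBP2, which encodes a secreted binding protein of insulin-like growth factors, was at 12.6, 11.2 and 11.8 CPM in PCGF1 KO against 1 read in the BCOR KO group, a ratio of 200 with a 95% counting interval from 35.4 to 7930. At HMX2 and IGFBP2 no difference between BCOR KO and control cells was detectable at this depth.

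CADM1, an immunoglobulin-family adhesion molecule, had the lowest p of the comparison. It was at 61.6, 65.0 and 71.0 CPM in PCGF1 KO and at 1.54, 1.15 and 0.903 CPM in BCOR KO (log2 fold change 5.76 ± 0.22, adjusted p = 1.14e-16). Control libraries were at 4.43, 3.41 and 4.90 CPM, so the knockouts lay on opposite sides of control. KIF21A, a kinesin, showed the same order, with means of 13.8 in PCGF1 KO, 0.363 in BCOR KO and 1.28 CPM in control. The other genes of the largest 12 were SLC35F1, RAB11FIP5, LAMA5, TCF24, PTPRU, SCD5 and the pseudogene BRAFP1. They include a laminin chain (LAMA5), a receptor tyrosine phosphatase (PTPRU) and a stearoyl-CoA desaturase (SCD5). Reads of BRAFP1 may come from its parent gene.

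**Figure D1:**
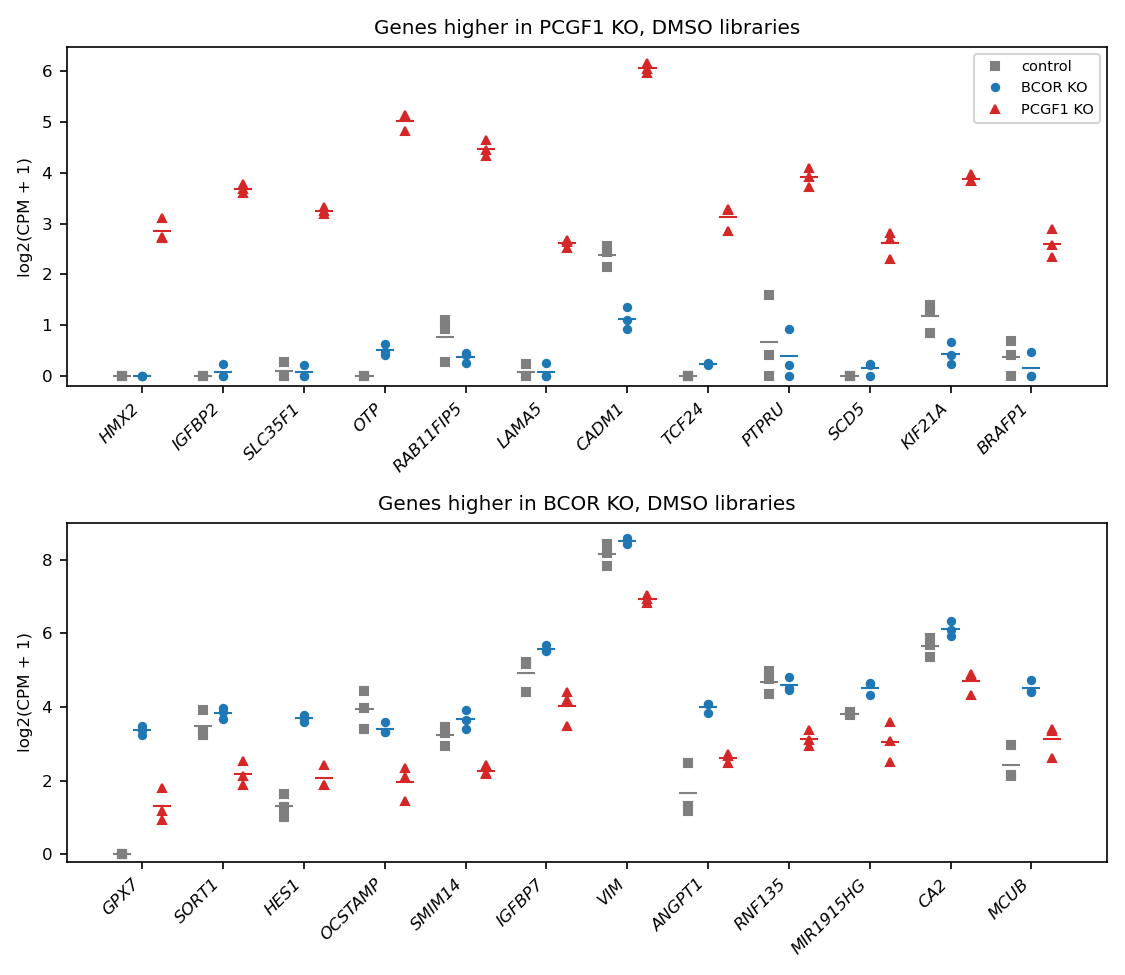
Level of each named gene as log2(CPM + 1) in every DMSO library, with grey squares for control, blue circles for BCOR KO, red triangles for PCGF1 KO and a bar at each group's mean. In the upper panel the 12 genes higher in PCGF1 KO are at or near 0 in BCOR KO, and in the lower panel most of the 12 genes higher in BCOR KO are present in all groups, with GPX7 at 0 in control.

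Other genes with the lowest p-values were expressed in both knockouts and differed in degree. CD59, which protects cells from complement, was at 83.9, 86.1 and 89.9 CPM in PCGF1 KO and at 16.6, 22.1 and 15.0 CPM in BCOR KO, near the 14.4, 16.6 and 13.9 CPM of control (log2 fold change 2.27 ± 0.13, adjusted p = 9.17e-13). EEF1A2, a translation elongation factor usually found in neurons and muscle, stepped upward from control through BCOR KO to PCGF1 KO. Its means were 1.20 ± 0.178, 24.0 ± 1.67 and 104 ± 4.83 CPM (SD, n = 3 each), and PCGF1 KO exceeded BCOR KO by 2.11 ± 0.13 on the log2 scale (adjusted p = 1.93e-12). NR2F1, an orphan nuclear receptor of neural development, followed the same order at 0.810 ± 0.564, 57.4 ± 8.30 and 194 ± 14.7 CPM. BASP1, a membrane-bound protein of growing axons, had another order. It was at 124, 124 and 141 CPM in PCGF1 KO, at 33.8, 29.8 and 30.3 CPM in BCOR KO, and at 161, 226 and 157 CPM in control (log2 fold change between knockouts 2.05 ± 0.11, adjusted p = 1.61e-13). VAT1L was the remaining gene of this set, at 201 ± 21.9 CPM in PCGF1 KO and 63.5 ± 6.04 CPM in BCOR KO.

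Genes higher in BCOR KO were fewer, and among the named ones only GPX7 had no read in control cells. GPX7, a glutathione peroxidase family member of the endoplasmic reticulum, was at 9.46, 8.41 and 10.1 CPM in BCOR KO and at 2.49, 0.897 and 1.26 CPM in PCGF1 KO (log2 fold change −2.58 ± 0.33, adjusted p = 1.17e-05). VIM, the intermediate filament vimentin, was at 344, 381 and 371 CPM in BCOR KO and at 122, 113 and 130 CPM in PCGF1 KO (log2 fold change −1.58 ± 0.11, adjusted p = 1.92e-11). The control libraries, at 288, 227 and 345 CPM, overlapped BCOR KO at their upper end and lay above all PCGF1 KO libraries. HES1, a transcriptional repressor induced by Notch signalling, was at 12.7, 12 and 11 CPM in BCOR KO against 4.35, 2.69 and 2.68 CPM in PCGF1 KO and at most 2.12 CPM in control. SORT1 (a sorting receptor), OCSTAMP, SMIM14, IGFBP7, ANGPT1 (the angiopoietin that activates TIE2), RNF135, MIR1915HG, CA2 (a carbonic anhydrase) and MCUB completed the 12, with log2 fold changes from −1.91 to −1.45.

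By p-value the list toward BCOR KO was led, after VIM, by IL17RA, LIN7A, LY86, CXCR4 and PHF12. IL17RA, the shared chain of interleukin-17 receptors, was at 251, 264 and 247 CPM in BCOR KO and at 134, 145 and 139 CPM in PCGF1 KO (log2 fold change −0.86 ± 0.08, adjusted p = 2.13e-08). CXCR4, the receptor that holds leukaemia cells in the marrow niche, was at 61.4, 61.8 and 61.4 CPM in BCOR KO and at 34.2, 34.1 and 35.0 CPM in PCGF1 KO (log2 fold change −0.84 ± 0.09, adjusted p = 1.8e-07). For both receptors control was highest, at 362 ± 51.9 and 103 ± 12.6 CPM, and PCGF1 KO lowest. LIN7A and LY86, a partner of the Toll-like protein RP105, were near control in BCOR KO and lower in PCGF1 KO. LY86 was at 46.1 ± 4.66 CPM in BCOR KO, 21.5 ± 0.954 CPM in PCGF1 KO and 52.1 ± 0.868 CPM in control. PHF12, a subunit of a SIN3 corepressor complex, was at 69.9 ± 6.02 CPM in BCOR KO and at 28.1 ± 3.89 CPM in PCGF1 KO, with 33.3 ± 4.28 CPM in control.

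Genes of the neutrophil granules, stores of the proteases and antimicrobial proteins that myeloid cells make as they mature, were mostly higher in PCGF1 KO. All 12 primary granule genes listed were tested, 7 were called higher in PCGF1 KO and 1 higher in BCOR KO (66.7%, beside 6.61% of all genes). Their median log2 fold change was 0.61, beside −0.01 over all genes. The median of the same contrast was 0.47 in SGC0946 and 0.07 in VTP50469, so the list stood near the centre of all genes in the Menin inhibitor. MPO, myeloperoxidase, was at 30.5, 35.9 and 34.6 CPM in PCGF1 KO and at 9.27, 8.57 and 12.8 CPM in BCOR KO, with control between them at 22, 22.5 and 22.4 CPM (log2 fold change 1.72 ± 0.13, adjusted p = 2.51e-10). PRTN3, proteinase 3, was at 1281, 1166 and 973 CPM against 611, 526 and 601 CPM (log2 fold change 0.98 ± 0.16, adjusted p = 0.000114), and its control libraries ranged from 745 to 1377 CPM. MS4A3, BPI, RNASE3, RNASE2 and CFD were the other called members, BPI losing its call when any 1 of 3 libraries was left out. CST7, which encodes an inhibitor of granule proteases, was the member called in the other direction, at 5.09 ± 0.796 CPM in PCGF1 KO and 11.9 ± 2.74 CPM in BCOR KO. ELANE, AZU1, CTSG and PRSS57 were not called. The summed level of the list ran from 4006 to 4550 CPM in PCGF1 KO, from 2815 to 3180 CPM in BCOR KO and from 2596 to 4322 CPM in control. In bulk RNA more cells at a later stage and more RNA per cell cannot be told apart.

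Few later-stage myeloid genes passed the filter. Of 14 secondary and tertiary granule genes 4 were tested and 2 called (50%, beside 6.61% of all genes), both higher in PCGF1 KO. CHI3L1, a chitinase-like secreted protein, was at 293, 309 and 357 CPM in PCGF1 KO and at 56.8, 64.1 and 58.3 CPM in BCOR KO, with 79.6, 96.4 and 81.7 CPM in control (log2 fold change 2.42 ± 0.10, adjusted p = 4.54e-16). SLPI, a secreted protease inhibitor, was at 42.7 ± 3.39 CPM against 15.6 ± 0.709 CPM. Of 20 monocyte and macrophage genes 10 were tested and 4 called (40%), of which CYBB, CSF1R and CCR2 were higher in PCGF1 KO while ITGAX was higher in BCOR KO. The calls of CSF1R and ITGAX were each lost when any 1 of 4 of the 6 libraries was left out. CYBB, the catalytic subunit of the phagocyte oxidase, was at 30.9, 36.8 and 29.9 CPM in PCGF1 KO and at 8.88, 7.42 and 9.57 CPM in BCOR KO (log2 fold change 1.91 ± 0.14, adjusted p = 1.1e-10). Control cells, at 36.5, 46.3 and 30.2 CPM, overlapped PCGF1 KO, so it was the BCOR KO libraries that stood apart. LYZ, the lysozyme gene that marks monocytes, was at 1.30 CPM in PCGF1 KO and 0.999 CPM in BCOR KO.

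Homeobox genes, the transcription factors that set body position and organ identity, were the largest list. Of 202 listed genes, 52 passed the filter, 15 were called higher in PCGF1 KO and 2 higher in BCOR KO (32.7% in all, beside 6.61% of all genes), and the median was 0.15. Members with no read in BCOR KO passed through PCGF1 KO and had to differ, so the count among tested genes is not a count over all homeobox genes. HOXC10 and TLX1 were, like HMX2, without a read in the BCOR KO and control libraries, with lower bounds on the fold of 19.3 for HOXC10 and 19 for TLX1. PAX6, the eye and brain regulator, was at 18.7, 20 and 15.3 CPM in PCGF1 KO and at 3.09, 2.80 and 5.06 CPM in BCOR KO, with 4.04 CPM in control (log2 fold change 2.29 ± 0.24, adjusted p = 1.02e-07). PAX5, the B-lineage factor, and DLX3 were present in both knockouts at different levels and nearly absent from control. PAX5 was at 14.4 ± 1.58 CPM in PCGF1 KO, 3.49 ± 1.30 CPM in BCOR KO and 0.0668 CPM in control. NKX2-2, OTX1, VENTX, ZEB1, ZHX2, HOXA11 and OTP were also higher in PCGF1 KO, and HLX and MEIS2 were higher in BCOR KO, MEIS2 losing its call when any 1 of 5 libraries was left out.

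Developmental transcription factors of other families gave 9 calls higher in PCGF1 KO and 4 higher in BCOR KO of 48 tested from 155 listed. The called share was 27.1%, beside 6.61% of all genes. The same limit of the filter holds for these factors. Toward PCGF1 KO they were FOXP2, OLIG2, OLIG1, HES7, NR2F1, ZIC1, FOXD2, SNAI3 and PRDM11. OLIG2, a factor of motor neuron and oligodendrocyte precursors, was at 25.5, 26.7 and 27.1 CPM against 4.06, 4.62 and 4.70 CPM (log2 fold change 2.56 ± 0.25, adjusted p = 3.23e-08). Toward BCOR KO they were TFAP2A, HES1, SOX4 and FOXN3. The calls of FOXD2, ZIC1, SNAI3 and SOX4 were each lost when any 1 of 5 of the 6 libraries was left out, and that of PRDM11 when any 1 of 3 was left out. TFAP2A, a neural crest factor, was at 37.1, 35.6 and 29.8 CPM in BCOR KO and at 16.8, 16.4 and 17.8 CPM in PCGF1 KO, both far above the control range of 0.401 to 1.31 CPM (log2 fold change −1 ± 0.18, adjusted p = 0.000279). TFAP2A thus had the reverse order of NR2F1 among genes near silent in control.

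**Figure D2:**
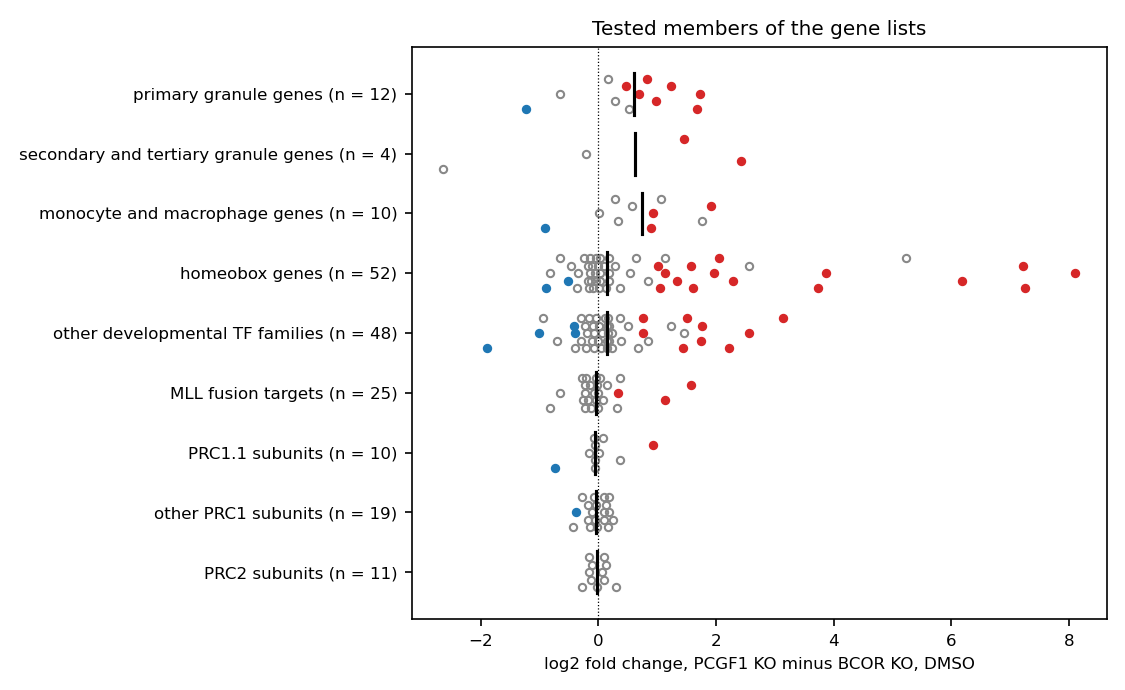
Log2 fold change (PCGF1 KO minus BCOR KO, DMSO) of each tested member of 9 gene lists, with filled red points called higher in PCGF1 KO, filled blue points called higher in BCOR KO, open points not called, a black bar at each list's median and a dotted line at the median of all genes. Primary granule genes centre at 0.61, and the homeobox list has a long right arm that ends at HMX2, at 8.10, a fitted value against 0 reads.

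The targets of the MLL fusion, the genes that drive this leukaemia, were also compared between the knockouts. Of 25 tested 3 were called (12%, beside 6.61% of all genes) and 10 had an unadjusted p under 0.05, as had 2029 of all 12140 genes. The 3 called were all higher in PCGF1 KO, with HOXA11 and CDK6 among them. The call of CDK6 was lost when any 1 of 4 libraries was left out. HOXA11 was at 43.9, 43.7 and 48.3 CPM in PCGF1 KO and at 20.1, 24.1 and 18.1 CPM in BCOR KO (log2 fold change 1.13 ± 0.18, adjusted p = 5.33e-05). HOXA9, a central target of the fusion, was at 80.6, 89.2 and 87.5 CPM against 84.4, 86.5 and 86.3 CPM, a difference under the spread. MEIS1, the HOXA9 cofactor, was at 26.1, 29.6 and 26.8 CPM against 33.8, 26.2 and 29.4 CPM (log2 fold change −0.12 ± 0.18, adjusted p = 0.849). HOXA10, HOXA13, MEF2C, SOCS2, EMB and LPXN had log2 fold changes from −0.27 to 0.37, none of them called.

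In the other chromatin lists the called share ran from 0% to 11.1%, beside 6.61% of all genes tested. Of 19 other PRC1 subunit genes tested, BMI1 alone was called, at 121 ± 8.08 CPM in PCGF1 KO and 157 ± 8.54 CPM in BCOR KO (log2 fold change −0.38 ± 0.09, adjusted p = 0.00842). None of 11 PRC2 subunit genes and none of 10 PR-DUB genes was called by edgeR or by DESeq2, and 0 and 2 of them had an unadjusted p under 0.05. Of 18 genes of the Menin, DOT1L and MLL complexes, KDM6A was higher in PCGF1 KO and AFF1 higher in BCOR KO, KDM6A losing its call when any 1 of 4 libraries was left out. AFF1 was at 43.9, 38.1 and 37 CPM against 60.8, 72.5 and 71.9 CPM (log2 fold change −0.79 ± 0.12, adjusted p = 6.51e-05).

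Growth, signalling and lineage lists differed in their share of called members, beside 6.61% of all genes. Of 18 proliferation genes RRM2 was called, higher in BCOR KO with a log2 fold change of −0.25. Of 15 cell cycle genes CCND2 and CDK6 were called, both higher in PCGF1 KO. CCND2, cyclin D2, was at 191, 209 and 199 CPM in PCGF1 KO, at 130, 134 and 128 CPM in BCOR KO and at 23.2, 22.5 and 28.8 CPM in control (log2 fold change 0.61 ± 0.08, adjusted p = 5.26e-06). By edgeR, neither the 16 MAPK feedback and immediate early genes nor the 7 cytokine feedback or the 17 cholesterol synthesis genes had a called member, nor had they any by DESeq2. At an unadjusted p under 0.05 there were 6, 0 and 0 of them. The MAPK list had a median of −0.43, and its summed level of 591 to 826 CPM in PCGF1 KO lay below the 948 to 963 CPM of BCOR KO. Of 13 interferon response genes 23.1% were called, OAS3, HERC5 and IFITM3, all higher in PCGF1 KO, while ISG15 was not called. The median of these 13 was −0.01, as over all genes. Among 17 myeloid transcription factors ID1 and ID3, inhibitors of helix-loop-helix factors, were higher in PCGF1 KO, and SPI1, GFI1 and CEBPE were not called. The median of these 17 was −0.09. Their summed level of 849 to 1020 CPM in PCGF1 KO lay below the 1098 to 1128 CPM of BCOR KO. Of 15 surface antigens CD9 was higher in PCGF1 KO, at 49.9, 41.9 and 34.5 CPM against 13.9, 11.0 and 11.6 CPM, and CD44 was higher in BCOR KO. Of 4 MHC class II genes tested CD74, the invariant chain, was called, higher in BCOR KO (log2 fold change −0.48 ± 0.08, adjusted p = 0.000153). By edgeR 3 of the 4 had an unadjusted p under 0.05. Their median was −1.09 in DMSO, −0.36 in SGC0946 and 0.04 in VTP50469. Of 4 T-cell and NK-cell genes tested from 14 listed, 3 were called (75%), CD3D and NKG7 higher in BCOR KO and TCF7 higher in PCGF1 KO, all at 10.3 CPM or less in these 6 libraries. NKG7 lost its call when any 1 of 3 libraries was left out and under 3 other settings. By DESeq2 2 members of this list were called. BCL6 targets, BCL2 family genes and ATF4 targets had 3, 2 and 2 called members of 19, 14 and 18 tested, in both directions. Of 4 stem and progenitor genes tested ANGPT1 was called, and of 83 cytosolic ribosomal protein genes RPL23A was called. The IGF2BP, LIN28B and HMGA list (2 tested), the megakaryocyte list (1 tested) and the mast cell, basophil and eosinophil list (1 tested) had no called member by edgeR, with 0, 1 and 0 at an unadjusted p under 0.05.

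Because KDM2B reads CG dinucleotides, the 250 bases before the start of the canonical transcript were read from GRCh38 for 10328 protein-coding genes tested, and the letters CG were counted on the gene's strand. The median was 24 CG in the 544 genes higher in PCGF1 KO, 22 in the 211 genes higher in BCOR KO and 22 over all 10328. At least 10 CG stood in 87.9%, 76.3% and 89.9% of these windows, and in 90.3% of those of genes not called. Of the genes under 1 CPM in control, the share was 93% in the 142 higher in PCGF1 KO, 50% in the 8 higher in BCOR KO, 73.2% in the 261 not called and 79.6% in all 411. Genes at this control level passed the filter on low counts through some other group, so these shares are a description only. The windows of 5 genes are printed because they span this range at genes whose levels separated the knockouts, with every CG in capitals and the gene's strand read 5′ to 3′.
HMX2: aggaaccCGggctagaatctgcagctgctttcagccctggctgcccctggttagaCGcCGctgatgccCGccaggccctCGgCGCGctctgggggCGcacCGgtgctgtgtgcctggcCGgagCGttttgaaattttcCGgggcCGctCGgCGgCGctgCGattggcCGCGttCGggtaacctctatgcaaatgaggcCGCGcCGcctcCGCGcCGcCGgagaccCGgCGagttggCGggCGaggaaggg
OTP: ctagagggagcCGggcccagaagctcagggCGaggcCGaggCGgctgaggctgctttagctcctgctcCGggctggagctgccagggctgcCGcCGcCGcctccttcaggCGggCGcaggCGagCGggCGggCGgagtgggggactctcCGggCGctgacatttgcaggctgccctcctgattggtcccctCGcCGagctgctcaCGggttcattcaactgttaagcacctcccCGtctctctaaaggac
CHI3L1: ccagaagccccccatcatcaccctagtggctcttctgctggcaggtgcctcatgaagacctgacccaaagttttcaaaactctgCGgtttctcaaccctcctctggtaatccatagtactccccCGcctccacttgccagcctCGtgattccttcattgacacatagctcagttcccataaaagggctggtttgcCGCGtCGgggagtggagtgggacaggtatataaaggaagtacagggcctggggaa
GPX7: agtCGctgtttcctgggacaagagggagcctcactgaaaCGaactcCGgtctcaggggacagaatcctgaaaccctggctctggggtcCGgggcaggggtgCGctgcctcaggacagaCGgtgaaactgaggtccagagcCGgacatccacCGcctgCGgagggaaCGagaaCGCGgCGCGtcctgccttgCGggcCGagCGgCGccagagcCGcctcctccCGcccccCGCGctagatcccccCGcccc
VIM: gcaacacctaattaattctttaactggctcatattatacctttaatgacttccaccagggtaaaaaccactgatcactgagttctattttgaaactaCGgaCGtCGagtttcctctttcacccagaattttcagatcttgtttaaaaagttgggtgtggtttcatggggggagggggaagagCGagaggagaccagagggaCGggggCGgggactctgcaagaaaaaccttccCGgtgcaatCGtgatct
The HMX2 window, chr10:123147886-123148135 on the plus strand, held 31 CG, and the OTP window, chr5:77638714-77638963 on the minus strand, held 20. The CHI3L1 window, chr1:203186705-203186954 on the minus strand, held 6, and so the gene with the lowest p among those of the granules is not CG-rich there. The GPX7 window, chr1:52602121-52602370 on the plus strand, held 23, and the VIM window, chr10:17227991-17228240 on the plus strand, held 8. Binding of KDM2B to these windows was not tested.

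The same contrast was measured in other libraries of the same cells, treated with the DOT1L inhibitor SGC0946 (5 μM, 72 h) or the Menin inhibitor VTP50469 (500 nM, 48 h), 3 per knockout and drug. These share no library with the DMSO contrast. They carry the same guide names, so a difference kept across treatments may belong to the edited gene, the guide or the edited population. PCGF1 KO differed from BCOR KO at 606 genes in SGC0946 (4.99% of those tested) and at 649 genes in VTP50469 (5.35%). Of the 571 genes higher in PCGF1 KO in DMSO, 560 were higher in SGC0946 and 563 in VTP50469, and 304 were called in that direction in all 3 treatments. Of the 231 genes higher in BCOR KO, 223 and 208 kept their direction, and 61 were called in all 3. Of all 12140 genes, 65% had the DMSO direction in SGC0946 and 64.6% in VTP50469. The median differences were smaller with drug, at 0.98 and 1.03 against 1.31 for the genes higher in PCGF1 KO, and at −0.44 and −0.38 against −0.68 for those higher in BCOR KO. Since the genes were chosen by their DMSO values, some shrinkage of this kind is built in. Across the 802 genes Pearson's r with the DMSO values was 0.904 in SGC0946 and 0.868 in VTP50469, beside 0.729 and 0.722 across all genes tested, genes not being independent replicates.

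**Figure D3:**
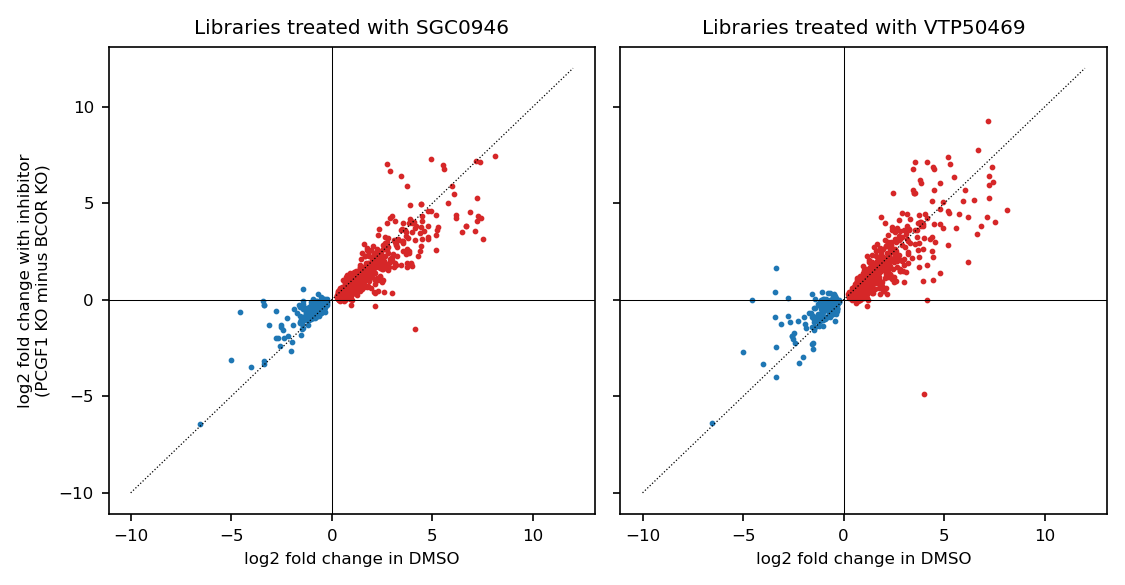
Log2 fold change (PCGF1 KO minus BCOR KO) in SGC0946 (left) and VTP50469 (right) against that in DMSO, for the 571 genes called higher in PCGF1 KO (red) and the 231 called higher in BCOR KO (blue) in DMSO; the dotted line marks equal values. Nearly all points lie in the 2 quadrants of equal sign, and the lone red point far below 0 in the right panel is CES1P1.

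Single genes held across treatments. CADM1 was at 75.6 ± 5.52 CPM in PCGF1 KO and 2.27 ± 1.12 CPM in BCOR KO in SGC0946, and at 85.4 ± 5.99 and 3.9 ± 1.11 CPM in VTP50469 (SD, n = 3 each). OTP fell in level but not in order, with 11.7 ± 0.985 CPM in PCGF1 KO against 0.585 ± 0.495 CPM in BCOR KO in SGC0946 and 2.89 ± 0.491 against 0.117 ± 0.101 CPM in VTP50469. CYBB was at 130 ± 6.46 against 41 ± 1.34 CPM in SGC0946 and at 272 ± 21.4 against 77 ± 6.34 CPM in VTP50469, higher in both knockouts with drug than in DMSO. VIM was at 248 ± 18.0 against 448 ± 28.7 CPM in SGC0946 and at 225 ± 22.3 against 409 ± 7.75 CPM in VTP50469. MEIS1 was not called between the knockouts in either drug.

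The change with drug of the difference between the knockouts was tested as an interaction. VTP50469 libraries are labelled 48 h and DMSO libraries 72 h, so for VTP50469 drug and time cannot be told apart. It was called at 2 genes for SGC0946 (0.0165% of those tested) and at 6 for VTP50469 (0.0494%) by edgeR, with 452 and 557 genes at an unadjusted p under 0.05. These counts depended on the setting, with 51 and 67 genes without the filter on low counts and 3 and 11 by DESeq2. CHI3L1 rose in both knockouts with drug and the gap narrowed, from a log2 fold change of 2.42 in DMSO to 1.25 in SGC0946 and 1.07 in VTP50469. RNASE2, the eosinophil-derived neurotoxin gene, was at 1094, 1075 and 1094 CPM in PCGF1 KO against 674, 664 and 684 CPM in BCOR KO in DMSO, and at 1349 ± 34.0 against 1354 ± 33.0 CPM in VTP50469, where the knockouts overlapped.

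A separate MOLM13 table holds the double knockout and its control in DMSO, labelled 96 h where the single knockouts are labelled 72 h. It bears on whether a named gene also differs from control when both subunits are edited. Of 12742 genes tested there, 122 were called higher and 33 lower in the double knockout. Only some of the named genes are given below, and the others are not reported here. CADM1 was at 154 ± 20.1 CPM in the double knockout and 5.84 ± 2.38 CPM in its control (log2 fold change 4.72, adjusted p = 3.56e-05), so the double knockout lay on the side of PCGF1 KO. CD59 was at 237 ± 8.27 CPM against 42.1 ± 1.5 CPM (adjusted p = 0.0108), KIF21A at 14.0 ± 0.216 against 0.858 ± 0.254 CPM (adjusted p = 0.00233), and HOXC10 at 8.49 ± 3.66 against 0.0346 ± 0.0301 CPM (adjusted p = 0.000285). MPO was at 178 ± 40.7 against 29.3 ± 4.15 CPM (adjusted p = 0.000111). GPX7 was near 0 in both, at 0.00972 and 0.0284 CPM, and VIM at 310 ± 69.6 and 256 ± 29.3 CPM was not called. Levels cannot be set across the 2 tables, which were made and scaled separately.

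Medians were also taken over the genes between each edit and the end of its chromosome arm. The 290 genes tested on 2p beyond PCGF1 had a median log2 fold change of −0.04 between the knockouts in DMSO, and the 80 genes on Xp beyond BCOR had 0.00, within the range of whole chromosomes (−0.05 to 0.03). The Xp genes were outside the range of whole chromosomes elsewhere, at 0.03 in SGC0946 and 0.07 in VTP50469, where chromosomes reached 0.01 and 0.02, and at −0.06 for BCOR KO minus control in DMSO, where chromosomes ran from −0.04 to 0.03. The part of this in the gene values was not tested.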

How the data were processed

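The assay was 3′ RNA-seq. The authors, per their methods, trimmed reads with bbmap and aligned them with STAR to GRCh38. They deposited raw counts per gene, unnormalized, with replicates apart. The counting program and strand setting of the knockout table are not given in the sources used here; lines that name no gene held 36.3% to 48.6% of reads in the DMSO libraries and were left out. GEO lists these samples under a mouse organism label, and the human build follows the methods.

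All 27 libraries of the table entered 1 model with a coefficient per group in edgeR 4.0.16 (R 4.3.3): TMM scaling, a minimum of 2 CPM in 2 or more libraries, quasi-likelihood test, Benjamini-Hochberg adjustment, calls at an adjusted p under 0.05. The 24 libraries of the double-knockout table were fitted apart, and 8 of its columns, which match none of these samples, were not used. DESeq2 1.42.0, other scalings, no filter, a replicate block and leaving out libraries were alternatives. Symbols and starts come from GENCODE 44, which named 97.5% of genes tested, and sequence from GRCh38. Paralogues, overlapping genes and antisense pairs may share reads. Intervals and floors cover counting error only.

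Named genes were PCGF1, BCOR, and in each direction the 12 with the largest log2 fold change and the 6 with the lowest p among called genes with a symbol whose groups did not overlap and whose higher mean reached 5 CPM. Called members of 31 gene lists, and members that the study names, could be added; some called members are not reported here. Members and lists were chosen with earlier results of these data known. Replicate numbers were not used to pair libraries in the main model. In DMSO, deviations from the group means of same-numbered libraries correlated at 0.06, −0.004 and 0.09. Other numbers reached at most −0.03, 0.07 and 0.03. In SGC0946 the same-numbered values were 0.14, 0.09 and 0.09, and in VTP50469 −0.002, −0.01 and 0.19. Such small correlations cannot decide whether same-numbered libraries were handled together.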

Additional observations from a re-analysis of the deposited data

Results flagged for a closer look

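The difference between the knockouts was not the same in drug as in DMSO at 8 results, by the interaction test of edgeR with adjustment over all genes. For VTP50469, labelled 48 h where DMSO is labelled 72 h, drug and time cannot be told apart. Each value is the change in log2 fold change, drug minus DMSO. For CHI3L1 it was −1.17 ± 0.13 SE in SGC0946 (adjusted p = 2.43e-05) and −1.35 ± 0.13 in VTP50469 (adjusted p = 1.16e-06). MYBPH, the gene next to CHI3L1 on the same strand of chromosome 1, had −0.92 ± 0.15 (adjusted p = 0.00696) and −1.02 ± 0.15 (adjusted p = 0.000595). In MYBPH the PCGF1 KO libraries hardly moved, at 54.7, 52.9 and 57.3 CPM in DMSO and 51.5, 55.5 and 51.7 CPM in VTP50469, while BCOR KO went from 18.2, 19.0 and 17.9 CPM to 31.8, 38.3 and 37.4 CPM.

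In VTP50469, RNASE2 had −0.70 ± 0.09 (adjusted p = 2e-04) and its pseudogene RNASE2CP had −0.87 ± 0.12 (adjusted p = 0.000595). The pair may share reads. In the drug the knockouts overlapped at RNASE2, while at RNASE2CP PCGF1 KO stayed above BCOR KO, at 127, 136 and 145 CPM against 124, 121 and 114 CPM. VAT1 had −0.81 ± 0.14 (adjusted p = 0.00966), with PCGF1 KO at 98.9, 99.5 and 117 CPM in DMSO and 117, 118 and 123 CPM in VTP50469, and BCOR KO at 63.2, 55.4 and 63.2 CPM and then 118, 121 and 124 CPM.

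CES1P1, a pseudogene, had −8.88 ± 1.56 in VTP50469 (adjusted p = 0.01). PCGF1 KO replicate 2 in DMSO held 59.4 CPM against 1.24 and 2.36 CPM in the other two, and BCOR KO replicates 1 and 2 in VTP50469 held 37.2 and 59.4 CPM against 1.47 CPM in replicate 3. Without PCGF1 KO replicate 2 its DMSO log2 fold change was 0.57 in place of 3.99.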

How the results depend on the processing

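The 802 calls in DMSO stayed between 600 and 749 without each library in turn and within 1.5 times under every other setting; the same held in SGC0946 (440 to 490, from 606) and VTP50469 (461 to 554, from 649). Without the filter 910 genes were called, 602 higher in PCGF1 KO and 308 higher in BCOR KO. With the replicate number as a replicate block the counts were 955, 707 and 747 in DMSO, SGC0946 and VTP50469 and 3 and 11 for the interactions. The sources used here do not say whether same-numbered libraries were handled together. With the block EMB was the named gene that gained a call (log2 fold change −0.27). The interaction counts of 2 and 6 moved most: 51 and 67 without the filter, 11 for VTP50469 by DESeq2, 5 and 10 at an adjusted p under 0.1 with an absolute log2 fold change over 0.5, and 1 to 3 and 5 to 8 without each library, with 1 for SGC0946 without BCOR KO in SGC0946 replicate 3. The cause was not tested. Uncalled values near 0 changed sign: HOXA9 was −0.0079 without the filter and −3e-04 with the block. Without single libraries HOXA9 ran from −0.019 to 0.0517, HOXA13 from −0.2856 to 0.0261, LPXN from −0.0056 to 0.1787, PCGF1 from −0.5325 to 0.0737 and SOCS2 from −0.1289 to 0.0294. No called named gene changed sign. Of 102 named genes called in DMSO, 24 lost the call without at least 1 of the 6 libraries and 28 under at least 1 alternative of any kind. RRM2 was lost under both other scalings and without each of the 6 libraries in turn, and BCL2A1, FOXD2, MEIS2, SNAI3, SOX4 and ZIC1 without any 1 of 5 of them. RPL23A was lost without PCGF1 KO replicate 3 in DMSO, with −0.19 in place of −0.41, and without any 1 BCOR KO library. Without the filter the homeobox median went from 0.15 to 0, and with only the libraries compared to 0.1.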
